A study of Oryza sativa Indica Group with 8 samples.

Results

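The expression of 10 loci of leaf starch metabolism was followed through 8 leaf messenger RNA libraries of rice that met salt shock never, early, late or at both times. They were 4 loci for ADP-glucose pyrophosphorylase, 1 for granule-bound starch synthase II (GBSSII), 1 for starch synthase I (SSI) and 4 for alpha-amylase. The 10 identifiers were chosen by the gene product assigned to them, not by their counts, out of 55986 loci listed. The count tables carry identifiers only, so these assignments were not checked against an annotation here. In an identifier of the LOC_Os form the first number is the chromosome.

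All plants were the salt-sensitive indica genotype BRS Ligeirinho, germinated for 7 days and then kept in washed sand in a greenhouse with water and nutrient solution. A cycle of 16 h light and 8 h dark is recorded for all 8 libraries. Control plants received no salt. Vegetative-shock plants met salt at the V4 stage, reproductive-shock plants at R0-R1, and double-shock plants at both. Each of the 4 groups had 2 libraries of leaf tissue. The labels give no salt dose, shock length, plant age or collection time. An effect of the shocks and a difference in collection time cannot be told apart. The labels do not state that the libraries of a group are from different plants or pools. A p-value here sets a difference between groups against the spread between libraries of a group. That spread may be technical only.

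Leaf starch is made by day in the chloroplast and broken down by night. ADP-glucose pyrophosphorylase, an enzyme of large and small subunits, makes ADP-glucose in the step that commits carbon to starch. SSI lengthens short amylopectin chains, and GBSSII is the granule-bound synthase of rice leaves and other non-storage tissues, which makes amylose. Alpha-amylases cut starch chains internally. Rice alpha-amylases form a multigene family known mainly from germinating seeds, where hormones and sugar starvation control them.

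Counted reads per library ranged from 10464740 to 11727657. In 3 libraries (control replicate 1, reproductive replicate 2 and double-shock replicate 1) 13.5% to 13.8% of the listed reads aligned to more than 1 place, against 9.32% to 9.99% in the other 5. Both vegetative libraries and double-shock replicate 2 correlated best, over all tested loci, with a library of another group. Of 7 leaf marker loci (Rubisco small subunit and light-harvesting proteins, from general knowledge of the identifiers and not annotated in the sources used here), 6 were analysed. Of these 6, 5 had more than 10 reads in every library and 1, a light-harvesting locus, had no read in any. Their summed level was 24516 to 31879 CPM (counts scaled to library size with edgeR's TMM factors) in control, 24898 to 30159.5 in vegetative, 26897 to 40818 in reproductive and 28681 to 40484.5 CPM in double-shock libraries. Of 4 endosperm storage protein loci, 2 had no read and 1 had 48 to 74 reads in every library. The sum of the 4 was 4.01 to 7.20 CPM. The part of these differences in the results below was not tested.

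Expression of the starch synthesis loci was measurable in all libraries and expression of the alpha-amylase loci was close to the limit of detection. No starch locus passed edgeR's test between any pair of groups. All 6 starch synthesis loci and no alpha-amylase locus passed edgeR's filter on low counts, as did 18251 of all loci. None of the 6 was called by edgeR's quasi-likelihood test at an adjusted p below 0.05 in any of the 6 pairwise comparisons, in the averages of the late and the early shock, or in their interaction. The largest difference was in LOC_Os05g50380, an ADP-glucose pyrophosphorylase locus, whose double-shock libraries were the lowest of all 8. The share of all tested loci with that pattern was not counted.

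LOC_Os05g50380 (chromosome 5) stood at 21.6 and 11.5 CPM in control replicates 1 and 2, from 258 and 121 reads. Vegetative-shock libraries had 13.5 and 19.3 CPM. Reproductive-shock libraries had 12.9 and 11.0 CPM, and double-shock libraries 7.31 and 7.33 CPM, from 75 and 87 reads. Both double-shock libraries thus lay below the other 6, while the reproductive-shock range reached down past the lower control. For 21.3% of all tested loci the double-shock libraries lay below both controls, which is a weaker pattern. The share with both below all the other 6 was not counted. For LOC_Os05g50380 the double-shock mean of 7.32 ± 0.0123 CPM was 0.441-fold of the control mean of 16.6 ± 7.10 CPM (SD, n = 2). The log2 fold change was -1.18 with an SE of 0.30, at an edgeR adjusted p = 0.207. The unadjusted 95% interval of that fold ran from 0.275 to 0.709. The very small SD of the double-shock pair is less than counting error alone would usually give for 75 and 87 reads, so it is no measure of precision.

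The control libraries of LOC_Os05g50380 differed 1.87-fold from each other, and they set the size of its difference. Without control replicate 1, which is also one of the 3 libraries rich in multiply aligned reads, the log2 fold change of double-shock plants against control was -0.65, and without control replicate 2 it was -1.56. With a term for those 3 libraries the call did not change. Against vegetative-shock plants the double-shock level was 0.446-fold (log2 fold change -1.16, SE 0.30, edgeR adjusted p = 0.346). Against reproductive-shock plants it was 0.614-fold (log2 fold change -0.70, SE 0.31, edgeR adjusted p = 0.614). In its order of group means, control, vegetative, reproductive, double, no neighbouring pair differed by the adjusted test.

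In LOC_Os05g50380 the libraries from plants shocked late overlapped the others, with reproductive replicate 1 at 12.9 and control replicate 2 at 11.5 CPM. They did not overlap in another ADP-glucose pyrophosphorylase locus, LOC_Os09g12660 (chromosome 9). It had 9.70 and 7.53 CPM in control, 7.19 and 7.87 in vegetative-shock, 5.51 and 4.77 in reproductive-shock and 5.95 and 5.81 CPM in double-shock libraries. All 4 libraries from plants shocked late lay below all 4 libraries from plants that were not. Such a separation downward was found for 3.04% of all tested loci. The mean of the 2 late-shock groups was 0.682-fold of the mean of the other 2 (log2 fold change -0.55, SE 0.15, edgeR adjusted p = 0.184). For the single late shock against control the log2 fold change was -0.74 (SE 0.21, edgeR adjusted p = 0.169), for reproductive-shock against vegetative-shock plants -0.55 (SE 0.22, edgeR adjusted p = 0.601), and for double-shock plants against control -0.55 (SE 0.21, edgeR adjusted p = 0.371). This locus rests on 49 to 116 reads a library. Its group means ran from control through vegetative and double to reproductive, the last 2 being 5.88 ± 0.0949 and 5.14 ± 0.523 CPM (SD, n = 2).

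**Figure D1:**
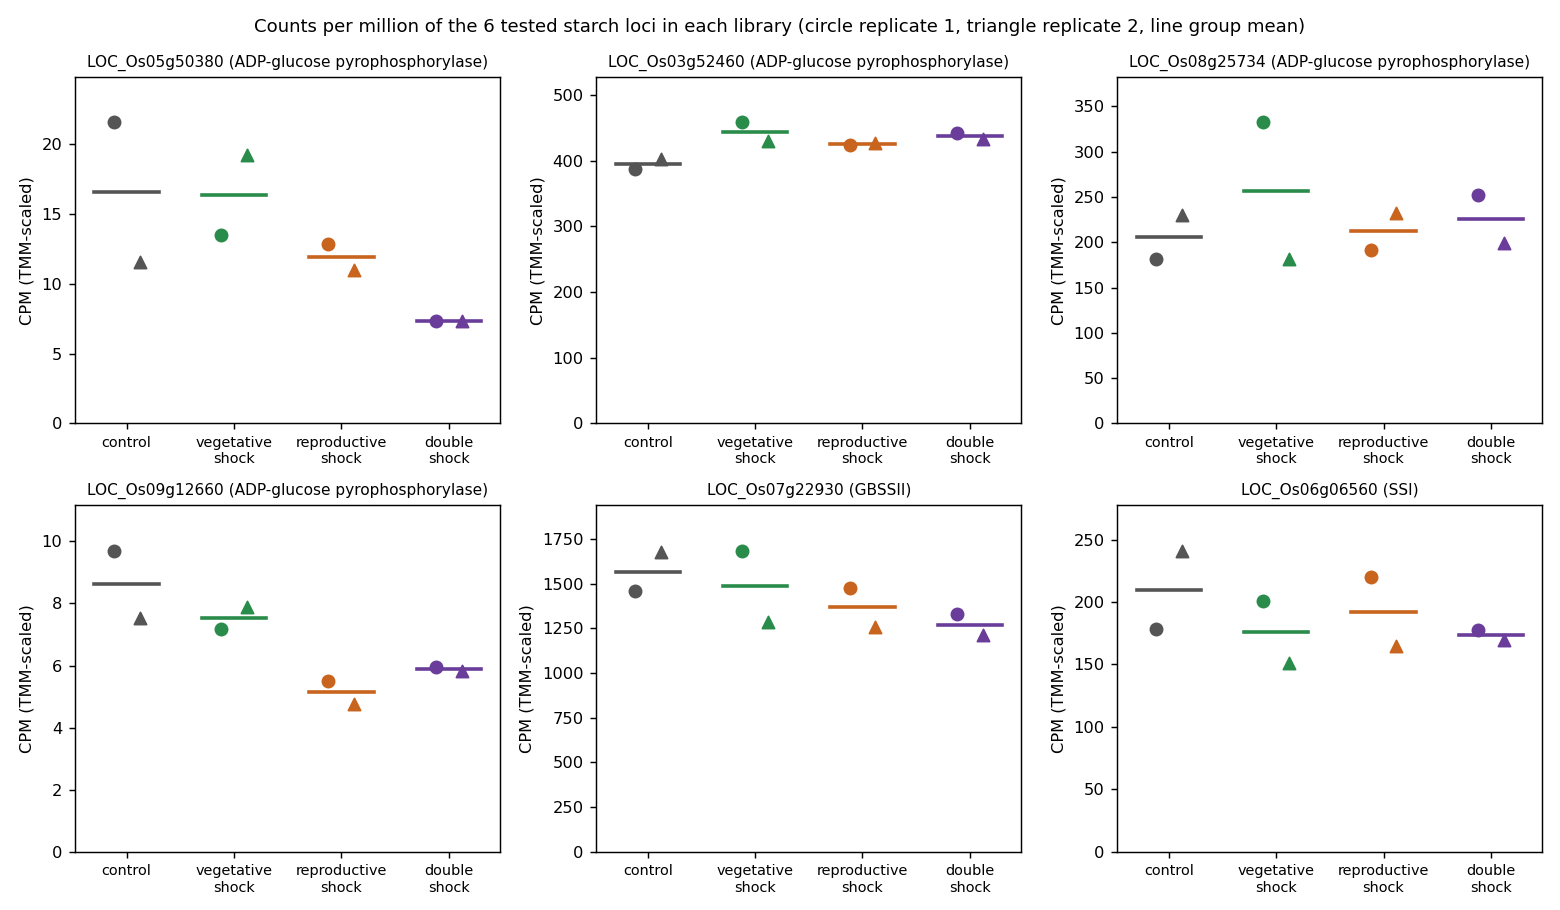
CPM (TMM-scaled, linear axis from 0) of the 6 tested loci in each library, by group; circles are replicate 1, triangles replicate 2 and lines group means. LOC_Os05g50380 is lowest in both double-shock libraries at 7.31 and 7.33 CPM, while LOC_Os03g52460 stays between 387 and 458 CPM in all 8.

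The other ADP-glucose pyrophosphorylase loci carried most of the reads that fell on the 4 loci followed here. LOC_Os03g52460 (chromosome 3) had 387 and 403 CPM in control, 458 and 429 in vegetative-shock, 424 and 426 in reproductive-shock, and 442 and 433 CPM in double-shock libraries. Every shocked library lay above both controls, by small steps. Of all tested loci, 16.5%, 22.2% and 20.3% had both vegetative-shock, reproductive-shock or double-shock libraries above both controls. The share with all 3 together was not counted. The fold of LOC_Os03g52460 against control was 1.12 for vegetative-shock plants (unadjusted 95% interval 0.928 to 1.36), 1.08 for reproductive-shock plants (0.889 to 1.30) and 1.11 for double-shock plants (0.915 to 1.34). These intervals leave out a doubling or a halving of this locus, and the edgeR adjusted p was 0.825, 0.756 and 0.702. Its biological coefficient of variation in the fit was 10.7%, against a median of 15.5% over all tested loci, so it was among the steadier loci between replicates.

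LOC_Os08g25734 (chromosome 8) was far less even. It had 182 and 229.8 CPM in control, 333 and 181 in vegetative-shock, 191 and 233 in reproductive-shock, and 252 and 199 CPM in double-shock libraries. Vegetative replicate 1 was the highest library and vegetative replicate 2 the lowest, so the range of that group enclosed all others. The vegetative group against control gave a log2 fold change of 0.32 (SE 0.27, edgeR adjusted p = 0.868). It was -0.18 without vegetative replicate 1 and 0.69 without vegetative replicate 2. No direction can be given for this locus.

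The split of reads among the ADP-glucose pyrophosphorylase loci needs no scaling between libraries and was therefore looked at too. Between 6838 and 8352 reads a library fell on the 4 loci. LOC_Os03g52460 took 56.5% to 67.3% of them and LOC_Os08g25734 took 28.4% to 41.0%, shares that also reflect transcript length. Vegetative replicate 1 held both the lowest share of the former and the highest of the latter. LOC_Os05g50380 took 3.59% and 1.77% in control, 1.66% and 3.02% in vegetative-shock, 2.03% and 1.63% in reproductive-shock, and 1.03% and 1.14% in double-shock libraries. Double-shock libraries were below the other 6 here too. These shares rest on the same reads of the locus as its CPM values, so this is no separate observation. The exact 95% binomial intervals of the double-shock shares, 0.814% to 1.29% and 0.911% to 1.40%, cover counting error only. By contrast, the share of LOC_Os09g12660 was 0.707% to 0.901% in late-shock libraries and 0.886% to 1.62% in the others, ranges that overlap. The overlap comes from vegetative replicate 1 alone, at 0.886%. In that library LOC_Os08g25734 took its highest share, 41.0%, and the part of this in the overlap was not tested.

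**Figure D2:**
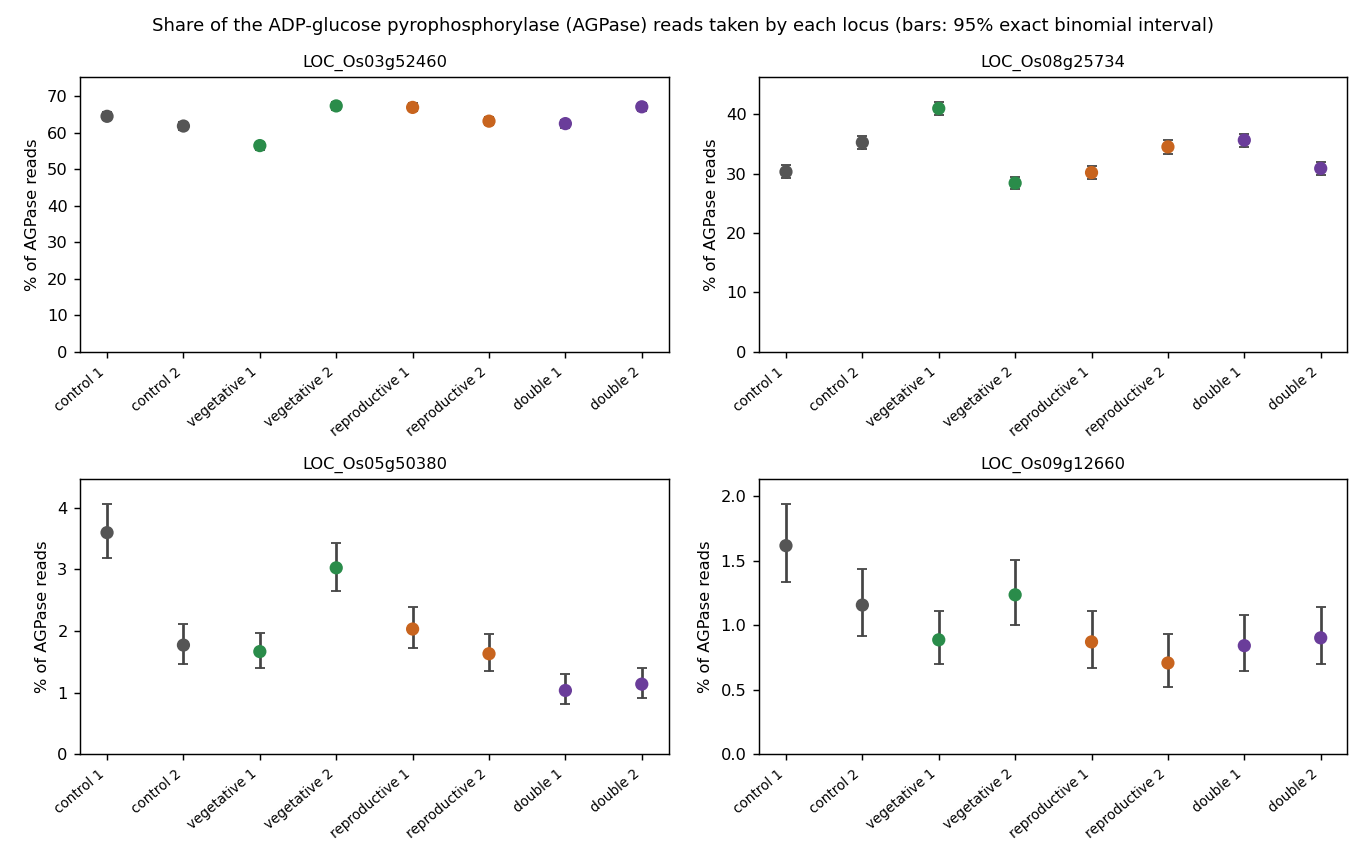
Percent of the reads of the 4 ADP-glucose pyrophosphorylase loci that fell on each locus, per library, with exact 95% binomial intervals and a linear axis from 0. LOC_Os05g50380 takes 1.03% and 1.14% in the double-shock libraries and at least 1.63% in the others, and LOC_Os08g25734 spans 28.4% to 41.0% within the vegetative group alone.

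GBSSII (LOC_Os07g22930, chromosome 7) gave 12953 to 17581 reads a library. Its level was 1459 and 1676 CPM in control, 1685 and 1285 in vegetative-shock, 1475 and 1261 in reproductive-shock, and 1329 and 1212 CPM in double-shock libraries. Both double-shock libraries were below both controls, and the single-shock groups overlapped control. Double-shock plants had 0.811-fold of the control level, with an unadjusted 95% interval of 0.607 to 1.08 (log2 fold change -0.30, SE 0.18, edgeR adjusted p = 0.588). The group means ran in the order control, vegetative, reproductive, double, from 1567 ± 153 to 1271 ± 82.5 CPM (SD, n = 2), without a called step.

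SSI (LOC_Os06g06560, chromosome 6) had 178 and 241 CPM in control, 200.4 and 151 in vegetative-shock, 219.8 and 165 in reproductive-shock, and 178 and 169.9 CPM in double-shock libraries. The double-shock libraries were below both controls, replicate 1 by less than 1 CPM, and all other groups overlapped. The fold against control was 0.828 in double-shock (unadjusted 95% interval 0.599 to 1.14), 0.838 in vegetative-shock (0.606 to 1.16) and 0.917 in reproductive-shock plants (0.663 to 1.27). The direction of the last turned without control replicate 2 or without reproductive replicate 2, to log2 fold changes of 0.11 and 0.063. Without control replicate 2 the log2 fold change moved from -0.27 to -0.039 in double-shock and from -0.26 to -0.018 in vegetative-shock plants. The 2 synthases varied together over the 8 libraries (Pearson r = 0.82 and Spearman rho = 0.83 on CPM values that share library scaling, given as a description). Reads on GBSSII were 6.71 to 8.51 times those on SSI. That ratio was 8.41 and 8.51 in vegetative-shock libraries, above all other libraries, whose highest was 8.17 in control replicate 1. It was 6.95 in control replicate 2, so the controls differed by more than that gap. The separation was not tested, and the share of locus pairs with one like it was not counted.

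The alpha-amylase loci were nearly silent in the leaf at this depth. LOC_Os08g36910 (chromosome 8) had reads in all 8 libraries, but only 1 to 3 in each and 15 in total. Pooled over a group there were 3 reads in control (exact 95% Poisson interval 0.619 to 8.77) and 4 in each shock group (1.09 to 10.2). Its level in single libraries was 0.0820 to 0.291 CPM. This did not rise above the limit that a count of 0 in a library allows, so no fold is given. That limit is 3 reads or 0.246 to 0.293 CPM. Over all 8 libraries its 15 reads were above the 3 that a count of 0 allows, so it was low but detected.

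LOC_Os08g36900 (chromosome 8), LOC_Os02g52710 (chromosome 2) and LOC_Os09g28400 (chromosome 9) had 0 reads in every library. Over the 88748782 counted reads of the 8 libraries, a count of 0 allows up to 0.0338 CPM. Such loci are common in these tables, since 44.8% of all listed loci had no read in any library. A fall of these 4 loci after salt was therefore not detectable at this depth, and no shocked library of any of them held more than 3 reads. In a fit without the low-count filter, LOC_Os08g36910 was not called in any contrast (lowest edgeR adjusted p = 0.999941). Reads that align to more than 1 place are in a summary line of the tables and not in the locus counts, and whether alpha-amylase reads were lost that way was not tested. Among the 18 other loci listed within 3 places of the 4 alpha-amylase loci by identifier number, 10 also had no read, 4 had 2 to 37 reads over all libraries and 4 were abundant enough to be tested.

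The 6 tested loci were set beside all tested loci in each comparison, as a description. For the reproductive shock against control, edgeR called 0 of the 6 and 0.614% of all tested loci. At an unadjusted p below 0.05 it had 1 of the 6 lower (LOC_Os09g12660), against 7.22% of all loci. The median log2 fold change of the 6 was -0.16, with values from -0.74 to 0.11, and -0.0033 over all loci. In vegetative-shock plants 0 of the 6 and 0.0329% of all loci were called, and 0 of the 6 and 7.7% of all loci had an unadjusted p below 0.05. The medians were -0.047 and 0.0039.

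Double-shock plants against control had the largest median absolute log2 fold change of the 6 loci among the 9 contrasts, at 0.29, against 0.20 over all tested loci. Here 0 of the 6 and 0.164% of all loci were called, and LOC_Os05g50380 and LOC_Os09g12660 were lower at an unadjusted p below 0.05, as were 6.48% of all loci. Libraries did not overlap for 5 of the 6, 4 of them lower and 1, LOC_Os03g52460, higher; over all tested loci 41.6% did not overlap, 21.3% being lower and 20.3% higher. These 3 comparisons share their control libraries, and less RNA per cell cannot be told apart from fewer cells of a type in whole leaves.

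DESeq2 and edgeR's likelihood ratio test each called 1 of the 6, LOC_Os05g50380, as lower in double-shock plants than in control (adjusted p = 0.0458 and 0.0271). These tests called 1.31% and 1.97% of the loci they tested, 224 of 17143 and 360 of 18251. Over the 17 alternative fits of that difference the adjusted p ran from 8.69e-06 to 0.779. The lowest came without the low-count filter, where edgeR called 1119 of 30913 loci, or 3.62%.

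**Figure D3:**
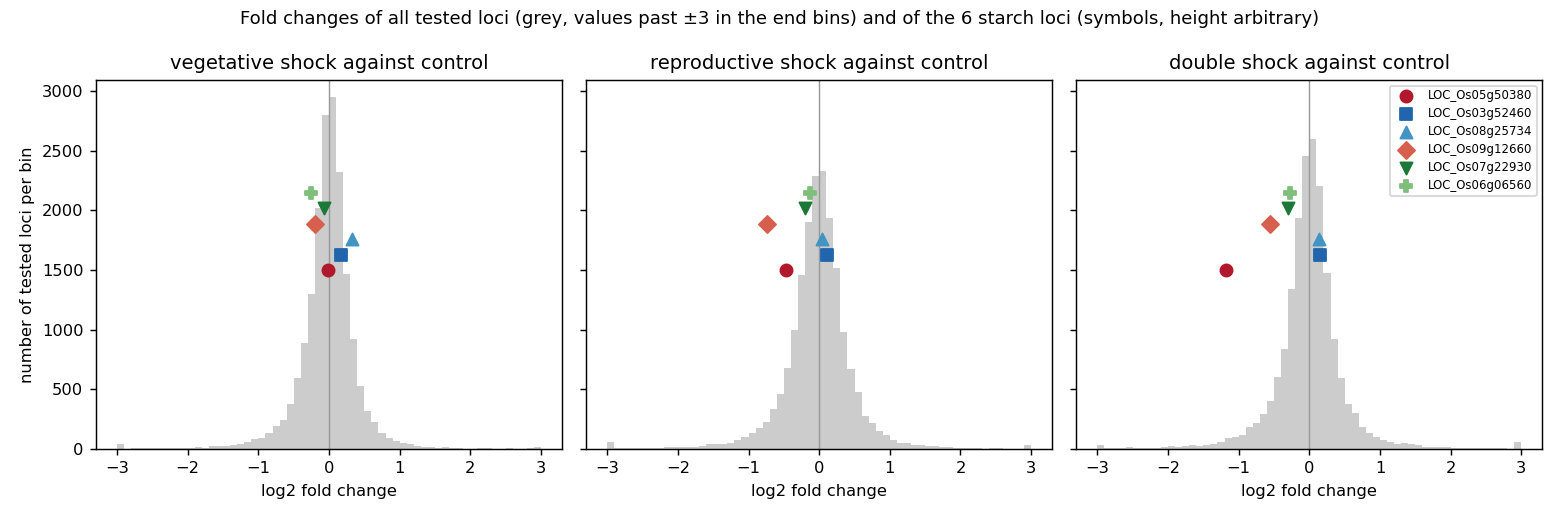
Number of tested loci per bin of log2 fold change against control (grey) for each shock group, with the 6 starch synthesis loci as symbols at arbitrary height. LOC_Os05g50380 lies at -1.18 and LOC_Os09g12660 at -0.55 in double-shock plants, and LOC_Os03g52460 lies at 0.11 to 0.17 in all 3 panels.

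By the labels, the double-shock group differs from the reproductive-shock group in the earlier shock. Between them edgeR called 0 of the 6 and 0% of all tested loci. LOC_Os05g50380 alone of the 6 had an unadjusted p below 0.05, as had 8.05% of all loci. DESeq2 called 70 loci (0.646%) and the likelihood ratio test 95 (0.521%) in this comparison, none of them among the 6. The remaining 5 had folds between 0.903 and 1.14. The interaction asks whether the early shock left a different trace with and without a later one. There too 0 of the 6 were called, against 0.0986% of all loci, and 0 of the 6 had an unadjusted p below 0.05, against 9.71%. The largest interaction was again that of LOC_Os05g50380 (log2 value -0.69, SE 0.42, edgeR adjusted p = 0.653).

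Averaged over both histories, the late shock gave 0 calls among the 6, against 0.449% of all loci. LOC_Os05g50380 (log2 fold change -0.82, SE 0.21, edgeR adjusted p = 0.160) and LOC_Os09g12660 were lower at an unadjusted p below 0.05, as were 6.51% of all loci. DESeq2 and the likelihood ratio test called LOC_Os05g50380 here (adjusted p = 0.0409 and 0.0219), out of 316 and 519 calls, or 1.73% and 2.84% of the loci each tested. The late-shock average was 1.03-fold for LOC_Os03g52460, with an unadjusted 95% interval of 0.90 to 1.18, and 0.864-fold for GBSSII, with an interval of 0.704 to 1.06. Averaged in the same way, the early shock gave 0 calls among the 6 and 0% over all loci, with 0 of the 6 and 5.78% of all loci at an unadjusted p below 0.05. Its largest value was for LOC_Os05g50380 (log2 fold change -0.36, SE 0.21, edgeR adjusted p = 0.876). Its counts by DESeq2 and the likelihood ratio test were 25 and 18 (0.367% and 0.0986%), none among the 6. DESeq2 gave an adjusted p to only 6816 loci in this contrast. LOC_Os05g50380 was not one of them, so DESeq2 could not call it there. That filter goes by mean count, so the same holds for LOC_Os09g12660, whose mean level was 6.79 CPM against 13.0 CPM.

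Double-shock plants against vegetative-shock plants gave 0 calls among the 6, against 0.0712% of all loci, and all 6 fold changes were negative, where 49.5% of all loci were. Their median was -0.21 on the log2 scale, against 0.0039 over all loci. Reproductive-shock against vegetative-shock plants gave 0 calls against 0.0548%, and 5 of the 6 were lower, where 51.3% of all loci were. In each of these comparisons 1 of the 6 was lower at an unadjusted p below 0.05, LOC_Os05g50380 in the former and LOC_Os09g12660 in the latter, as were 4.3% and 3.15% of all loci.

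**Figure D4:**
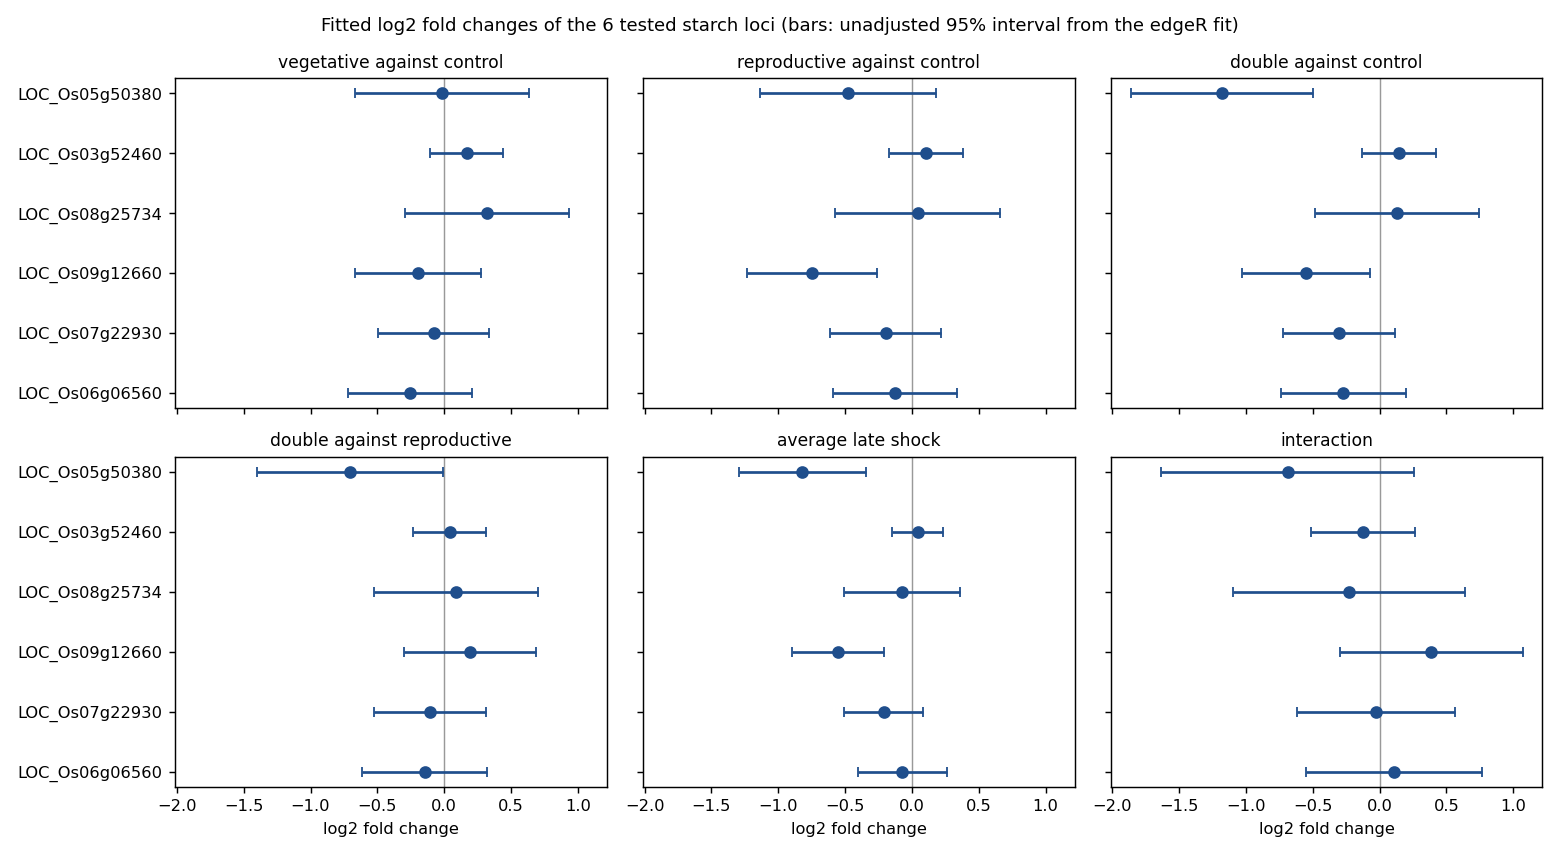
Fitted log2 fold changes of the 6 tested loci in 6 contrasts; points are estimates and bars unadjusted 95% intervals from the edgeR fit over all 18251 tested loci. The intervals of LOC_Os05g50380 and LOC_Os09g12660 lie below 0 for double-shock plants against control and for the average late shock, but neither has an adjusted p below 0.05, and every interval of LOC_Os03g52460 spans 0.

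A further list of 26 loci, other starch synthesis and breakdown genes by general knowledge of the identifiers, could not be checked against an annotation and is given by counts only. Of these, 24 were analysed and 18 passed the filter. edgeR called 0 of the 18 in each of the 9 contrasts. At an unadjusted p below 0.05, 3 of the 18 were lower than control after the reproductive shock and 0 higher, where 7.22% and 7% of all loci were. In double-shock plants 1 was lower and 1 higher than in control, where 6.48% and 4.7% of all loci were. For the average late shock 4 were lower and 0 higher, where 6.51% and 6.32% of all loci were. Their median log2 fold change was -0.22, -0.057 and -0.11 for reproductive-shock, vegetative-shock and double-shock plants against control. By sign alone, 17 of the 18 were lower in reproductive-shock than in vegetative-shock plants, as were 51.3% of all loci, and 16 of the 18 had a positive fold change for double-shock against reproductive-shock plants, as had 51.6% of all loci. These comparisons share the reproductive-shock libraries.

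Likeness of pattern over the 8 libraries was described for the most read locus of each class that was tested. Log2 CPM values of LOC_Os03g52460 were most like those of LOC_Os12g03270 (Pearson r = 0.96), and those of GBSSII most like those of LOC_Os07g45100 (r = 0.95). Both partners were weakly expressed, at 0.836 to 2.23 and 1.52 to 3.34 CPM. Of the 18245 loci compared over 8 libraries, 31 (0.170%) and 18 (0.0987%) had an r above 0.9. Each partner is the highest of 18245 values, so its r is high by selection. Within the ADP-glucose pyrophosphorylase loci, LOC_Os05g50380 and LOC_Os09g12660 varied alike (r = 0.70, Spearman rho = 0.67), and so did LOC_Os03g52460 with LOC_Os08g25734 (r = 0.64, rho = 0.60), again as a description. The correlations of LOC_Os03g52460 with LOC_Os09g12660 (r = -0.49, rho = -0.26) and with LOC_Os05g50380 (r = -0.47, rho = -0.40) were negative and weak.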

How the data were processed

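The authors deposited raw read counts per locus, 1 table for each of the 8 libraries, with no normalisation. An Illumina TruSeq kit was used on total RNA, per the labels' protocols. The submitters' processing notes name, with no order, STAR 2.7, HTSeq 0.11.1, FastQC 0.11.7, Trimmomatic and edgeR 3.8. No source used here gives their settings, the genome build, the annotation or the strand setting, so copies and overlapping loci carry uncertain counts. The reference gene table (ASM3414082v1) matched 0 identifiers, and no gene sequence or coordinate is given. The 5 HTSeq summary lines (15.0% to 19.2% of listed reads) were left out.

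Loci were kept by filterByExpr and fitted over all 8 libraries with group as the only term (edgeR 4.0.16, R 4.3.3, TMM, 4 residual and 4.77 prior degrees of freedom). Contrasts used the two-sided quasi-likelihood F test with Benjamini-Hochberg adjustment over all tested loci. SE is the log2 fold change over the root of F; its 95% interval uses 8.77 degrees of freedom. The procedure was tested on simulated counts. Alternatives, including DESeq2 1.42.0, are given at the end. Fold changes with tests are printed for loci with an unadjusted p below 0.05 and the largest change per contrast, and added for other loci to show their intervals. Replicate numbers were not taken as pairing libraries. Members, lists and tests were chosen with earlier results of these data known. Intervals of counts and the limit of 3 reads cover counting error only.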

Additional observations from a re-analysis of the deposited data

How the results depend on the processing

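In 16 other fits and 1 added after seeing the data (a term for the 3 libraries rich in multiply aligned reads), the count of starch loci called stayed at 0 in every contrast each fit gave, except for LOC_Os05g50380. Fits of only the groups compared gave the 6 pairwise contrasts, and all others gave 9. It was 1 instead of 0 for double-shock plants against control and for the average late shock with no low-count filter, with DESeq2 and with the likelihood ratio test, and for double-shock against vegetative-shock plants with no low-count filter. Loci called in all for double-shock plants against control were 30 in the quasi-likelihood fit, 1119 without the filter, 224 with DESeq2 and 360 with the likelihood ratio test; the cause was not tested. The count of starch loci called was 0 to 0 when any 1 library was left out. DESeq2 gave LOC_Os05g50380 no adjusted p for the average early shock, so it could not be called in that fit. The same holds for the less read LOC_Os09g12660, since the filter goes by mean count. The replicate block gave 0 starch loci in every contrast. Same-numbered libraries deviated together at r of -0.15 to 0.25, so numbers were not taken as pairs, and the block moved the calls over all loci from 30 to 54 for double-shock plants against control. LOC_Os08g25734 changed sign for the vegetative shock, to -0.18, without vegetative replicate 1, and was 0.69 without vegetative replicate 2. SSI (LOC_Os06g06560) for the reproductive shock against control, -0.13 with all libraries, ranged from -0.34 to 0.11 with 1 library left out, and was positive without control replicate 2 (0.11) and without reproductive replicate 2 (0.063). For LOC_Os05g50380, leaving out control replicate 1 or 2 gave -0.56 or -1.01 for the average late shock. The same fits gave -1.21 or -0.32 for its interaction and -0.097 or -0.55 for the average early shock. Fits that leave out a library have 1 library in a group, assumed to vary like the others. At this depth, a count of 0 in a library allows an alpha-amylase level of up to 0.246 to 0.293 CPM.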

Other observations

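One locus of the list of other starch genes, LOC_Os01g44220, was picked out after its values were seen. It had 614 reads in double-shock replicate 2, 194 in double-shock replicate 1, and 143 to 216 in the other 6 libraries.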
